A study of Mus musculus with 11 samples.

Results

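The genes described here are 47 genes of the DNA damage response and DNA repair, listed by name under 7 repair pathways, with no threshold on a measured value. All 47 were found among the 53801 genes quantified in RNA sequencing of hippocampus-derived primary neural stem cells (NSCs) of the mouse. The cells were cultured either in proliferation medium, with EGF and bFGF at 20 ng/ml each and 1% B27, or in differentiation medium, which held no added EGF or bFGF and 2% B27. In each medium they received 1 µM 4HBP or the vehicle ethanol (EtOH) for 7 days, and there were 3 libraries of 4HBP and 3 of EtOH in proliferation medium, and 3 of 4HBP and 2 of EtOH in differentiation medium. The sample labels spell 4HBP out as 4-Hydroxybenzoic acid, while the study's text uses the abbreviation for 4-hydroxybenzophenone, so the compound is called 4HBP here. The labels number the replicates but do not say whether they came from separate embryos or cultures, so the p-values below measure the spread between these libraries.

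DNA lesions are first met by sensors and kinases. The Mre11a, Rad50 and Nbn complex binds broken ends and helps to activate the kinase Atm, Atr answers to exposed single-stranded DNA at stalled replication forks, and Chek2 and Chek1 are their respective effector kinases. Broken ends can be repaired from the sister chromatid by homologous recombination, which is tied to S and G2 phase, or joined directly by non-homologous end joining, which also works in cells that do not divide. The Fanconi anemia pathway unhooks cross-links between DNA strands during replication, mismatch repair corrects replication errors, nucleotide excision repair removes bulky lesions, and Parp1 with Xrcc1 serves breaks of 1 strand. Dividing neural progenitors are known to depend strongly on replication-linked repair, whereas neurons rely more on end joining and excision repair.

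Library totals were between 20822921 and 23438463 expected counts, so that 3 counts corresponded to 0.128 to 0.144 CPM, the counts scaled to library size. The lowest count of any member in any library was 9. All 47 members passed the filter on low counts in each comparison. Replicate 3 of 4HBP in proliferation medium stood apart from its group, with a chi-square per gene of 25.6 and 23.0 against replicates 1 and 2, which differed from each other by 5.62. The spread between replicates was wider in proliferation medium (biological coefficient of variation 0.117 over 6 libraries) than in differentiation medium (0.0368 over 5 libraries). Summed over 8 neural stem cell markers the level was 7448 to 8638 CPM in proliferation medium and 4231 to 4373 CPM in differentiation medium. The sums of 6 microglial and 4 endothelial markers never exceeded 3.71 and 0.791 CPM, and the sum of 6 fibroblast and mural cell markers lay between 6.17 and 33.0 CPM. In bulk RNA of this kind, fewer cells that use a gene and less RNA of it per cell cannot be told apart.

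On the scale of TPM, which corrects for transcript length, the members covered a wide range in EtOH-treated cells in proliferation medium, with a median of 7.54 TPM. Parp1, which senses strand breaks and builds poly(ADP-ribose), was the most abundant at 58.1 ± 4.0 TPM (SD, n = 3). The Ku subunit Xrcc6 followed at 34.3 ± 6.0 TPM, then the scaffold Xrcc1 at 32.8 ± 0.72 TPM and the damage verification factor Xpa at 31.2 ± 2.8 TPM, and these levels lay within the spread of Xrcc6. The lowest levels belonged to Rad51b, a paralog of the recombinase of homologous recombination, at 1.29 ± 0.20 TPM, to Palb2, which links Brca1 to Brca2, at 1.52 ± 0.049 TPM, and to the Fanconi core subunit Fancb at 1.58 ± 0.22 TPM. Levels did not sort by pathway: in homologous recombination Rad51ap1, a stimulator of strand exchange, stood at 24.6 ± 0.96 TPM, and in end joining the kinase subunit Prkdc stood at 4.42 ± 0.50 TPM and the ligase Lig4 at 5.42 ± 0.53 TPM.

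By normalized counts, most repair genes were lower in differentiation medium than in proliferation medium. With EtOH, 32 of the 47 members (68.1%) fell and 2 rose at an adjusted p under 0.05 (edgeR quasi-likelihood test, Benjamini-Hochberg adjustment over 15920 genes), beside 30.6% of all tested genes that fell and 30.8% that rose. The median log2 fold change of the members was -0.71, against 0.03 over all tested genes. The 4HBP comparison sets other libraries against each other, but it comes from the same fit of 11 libraries and shares its estimate of the spread. With 4HBP, 32 members also fell and 2 rose, the median was -0.76, and the backgrounds were 33.8% lower and 33.3% higher. Of the members, 30 fell in both treatments. Fancg and Xpa fell only with EtOH and Ercc1 and Fance only with 4HBP at this threshold, a difference that the interaction test given further on did not call. With EtOH the decrease was steepest for Chek1, Exo1 and Brip1, with 4HBP for Chek1, Exo1 and Fancd2, and the pathway medians with EtOH ran from -1.59 in homologous recombination and -0.96 in the sensors and kinases to -0.20 in excision repair and -0.19 in end joining, as the plot of fold changes between media shows. TPM, which was not tested, differed less. With EtOH the 47 members summed to 523 to 579 TPM in proliferation and 492 to 521 TPM in differentiation medium. Their CPM sums were 1054 to 1157 and 728 to 733. By summed TPM, sensors and kinases, homologous recombination and mismatch repair were lower in differentiation medium with EtOH. Excision repair and strand-break repair were higher, and the Fanconi and end joining sums overlapped.

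**Figure D1:**
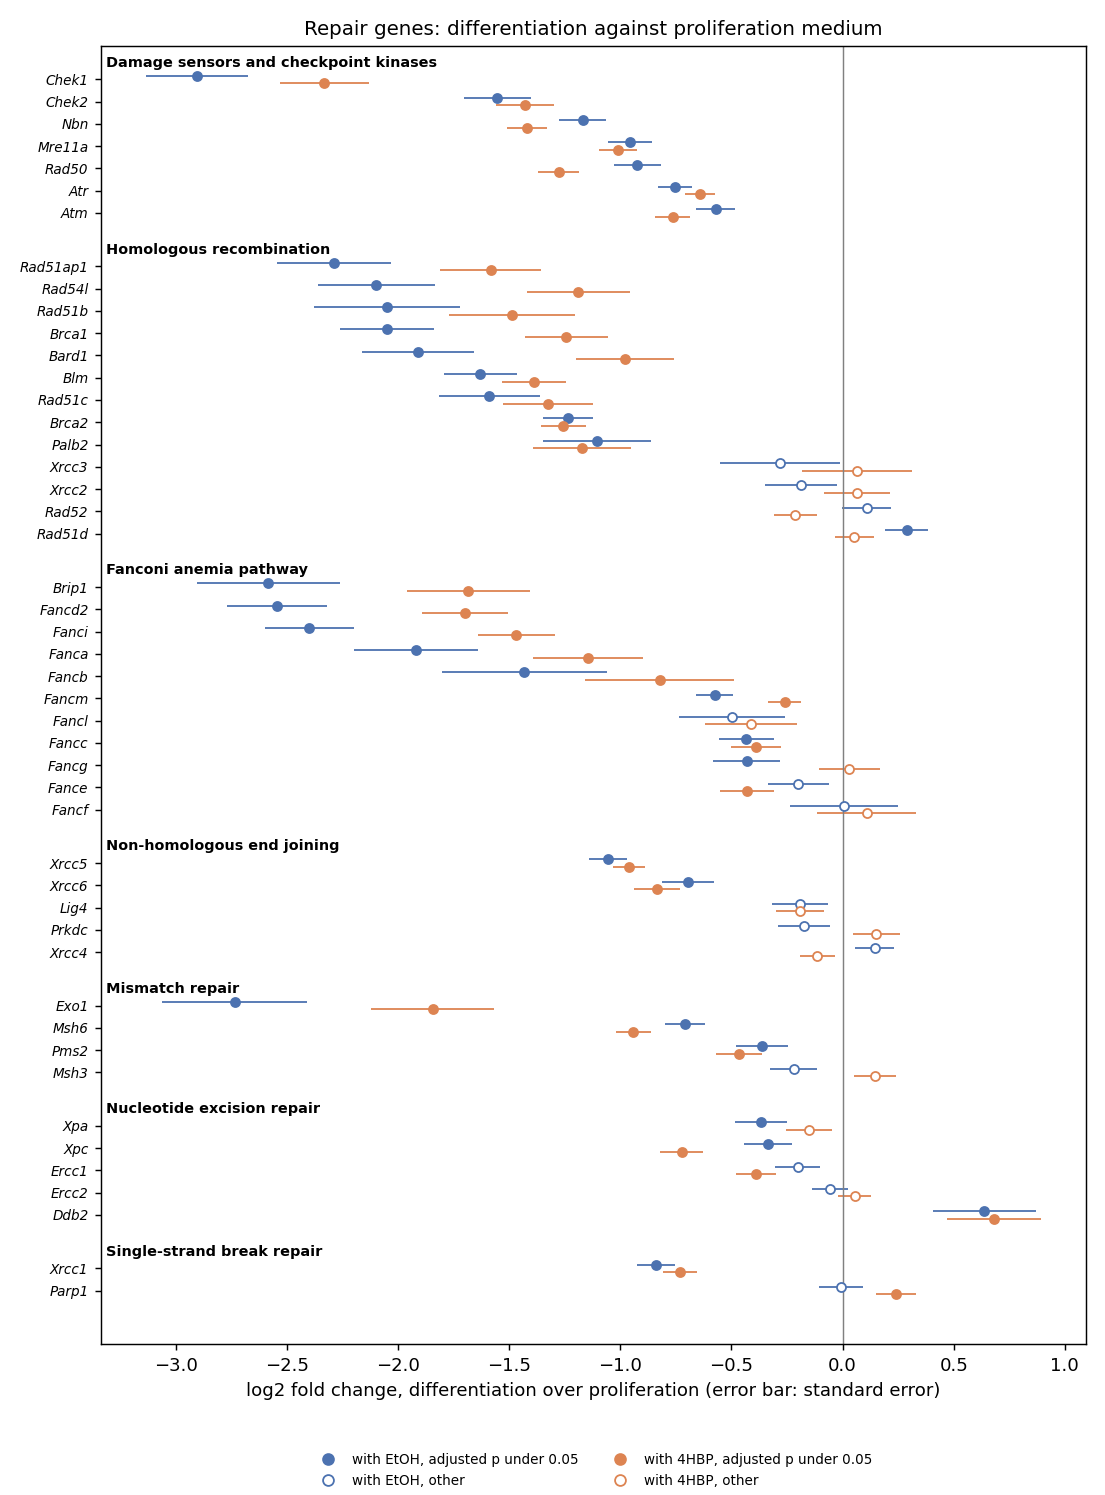
Log2 fold changes of 47 repair genes in differentiation over proliferation medium, with EtOH (blue) and with 4HBP (orange), grouped by pathway; the x axis is the log2 fold change, bars are standard errors and filled points have an adjusted p under 0.05. Chek1 lies lowest at -2.90 with EtOH, and Ddb2 is the gene farthest to the right, at 0.64 and 0.68.

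All 7 sensors and checkpoint kinases fell in both treatments. Chek1 (chr9:36708482-36727065, minus strand, GRCm38), the kinase that holds replication and mitotic entry when forks stall, measured 17.6, 13.8 and 23.1 CPM in proliferation medium and 2.38 and 2.46 CPM in differentiation medium with EtOH. The groups were far apart, a 7.49-fold decrease (log2 fold change -2.90, SE 0.23, adjusted p = 2.85e-07). With 4HBP the Chek1 values were 13.7, 13.2 and 10.2 CPM against 2.44, 2.66 and 2.23 CPM, a log2 fold change of -2.33 (SE 0.20, adjusted p = 3.68e-07). Chek2 followed with log2 fold changes of -1.55 and -1.43. The 3 subunits of the end-binding complex fell together, Nbn by 1.17 and 1.42, Mre11a by 0.96 and 1.01, and Rad50 by 0.92 and 1.28 on the log2 scale with EtOH and 4HBP. The apical kinases moved least. Atm, the double-strand break kinase, measured 55.4, 47.6 and 53.7 CPM in proliferation medium and 35.0 and 35.3 CPM in differentiation medium with EtOH (log2 fold change -0.57, SE 0.09, adjusted p = 1.01e-04), and Atr had a log2 fold change of -0.75.

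Homologous recombination divided into a large falling set and a few genes that did not fall. Rad51ap1 (chr6:126923050-126939587, minus strand) measured 12.1, 13.7 and 15.8 CPM in proliferation medium and 2.91 and 2.75 CPM in differentiation medium with EtOH. This was a 4.89-fold decrease (log2 fold change -2.29, SE 0.26, adjusted p = 5.97e-06). The motor protein Rad54l (-2.10), Rad51b (-2.05), the tumor suppressor Brca1 (-2.05) and its ubiquitin ligase partner Bard1 (-1.91) had log2 fold changes close to it, followed by the helicase Blm (-1.63), the paralog Rad51c (-1.59), the recombinase loader Brca2 (-1.23) and Palb2 (-1.11). Each of these 9 genes also fell with 4HBP, with log2 fold changes from -0.98 for Bard1 to -1.58 for Rad51ap1. The decrease of Brca2 held for counts and not for TPM. It stood at 5.82 to 6.61 TPM in proliferation and 6.82 to 7.12 TPM in differentiation medium with EtOH. With 4HBP its TPM overlapped (5.38 to 6.85 and 5.51 to 7.48). The paralogs Xrcc2 and Xrcc3 and the annealing factor Rad52 had values of -0.19, -0.28 and 0.11 with EtOH and did not pass the test in either treatment. Rad51d, another paralog, measured 15.7, 13.4 and 13.3 CPM against 16.5 and 18 CPM with EtOH and rose slightly (log2 fold change 0.29, SE 0.10, adjusted p = 0.0213). Its call was lost without EtOH replicate 2 (adjusted p = 0.0643) or 3 (0.0627) of proliferation medium or EtOH replicate 2 of differentiation medium (0.160), and with 4HBP its value was 0.05.

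In the Fanconi anemia pathway, 8 of 11 genes fell in each treatment and the steepest were Brip1, Fancd2 and Fanci. Brip1, a helicase that binds Brca1, measured 9.88, 7.55 and 11.2 CPM in proliferation medium and 1.86 and 1.32 CPM in differentiation medium with EtOH. Its groups did not overlap (log2 fold change -2.58, SE 0.32, adjusted p = 1.50e-05). Fancd2 and Fanci, which form the clamp that is ubiquitinated at cross-links, had log2 fold changes of -2.55 and -2.40 with EtOH and of -1.70 and -1.47 with 4HBP. Among the subunits of the ubiquitin ligase core, Fanca (-1.92) and Fancb (-1.43) fell clearly with EtOH, and the translocase Fancm (-0.58), Fancc (-0.43) and Fancg (-0.43) fell less. Fancg lost its call without EtOH replicate 1 of proliferation medium (adjusted p = 0.0876) or either EtOH replicate of differentiation medium (0.0940 and 0.0971), and Fancc without EtOH replicate 2 of the latter (0.0815). With 4HBP, Fancb had an adjusted p of 0.0449, which became 0.107 and 0.0996 without 4HBP replicates 1 and 2 of proliferation medium and 0.135 without 4HBP replicate 2 of differentiation medium. The ligase subunit Fancl (-0.50) and the adaptor Fancf did not pass. Fancf measured 2.83, 2.47 and 2.38 CPM in proliferation medium and 2.55 and 2.58 CPM in differentiation medium with EtOH, values that overlap (log2 fold change 0.01, SE 0.24, adjusted p = 0.985).

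In non-homologous end joining both Ku subunits fell and the 3 later factors did not pass the test. Xrcc5, the larger Ku subunit, measured 46.3, 42.2 and 45.2 CPM in proliferation medium and 22.8 and 20.1 CPM in differentiation medium with EtOH (log2 fold change -1.06, SE 0.08, adjusted p = 2.75e-07), and Xrcc6 had a log2 fold change of -0.70. The kinase subunit Prkdc (-0.17), the ligase Lig4 (-0.19) and the ligase cofactor Xrcc4 (0.14) did not pass. Xrcc4 measured 15.3, 14 and 14 CPM against 16.1 and 15.9 CPM with EtOH, 2 groups whose values were close (SE 0.09, adjusted p = 0.173). With 4HBP the same 2 genes of the pathway fell, Xrcc5 by 0.96 and Xrcc6 by 0.84 on the log2 scale.

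In mismatch repair, the exonuclease Exo1 measured 13.3, 14.3 and 16.1 CPM in proliferation medium and 1.94 and 2.42 CPM in differentiation medium with EtOH. That 6.66-fold decrease (log2 fold change -2.74, SE 0.33, adjusted p = 1.05e-05) exceeded those of the mismatch recognition subunit Msh6 (-0.71) and the endonuclease subunit Pms2 (-0.36), both of which passed the test, Pms2 with an adjusted p of 0.213 once EtOH replicate 2 of differentiation medium was left out. Msh3, the recognition subunit for larger loops, measured 33.7, 30.3 and 31.2 CPM against 27.5 and 27 CPM and did not pass (log2 fold change -0.22, SE 0.11, adjusted p = 0.0928), although its groups did not overlap.

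Nucleotide excision repair held the clearest rise. Ddb2, the subunit that recognizes ultraviolet lesions, measured 6.63, 8.53 and 5.85 CPM in proliferation medium and 12.3 and 9.50 CPM in differentiation medium with EtOH (log2 fold change 0.64, SE 0.23, adjusted p = 0.0280). Its 4HBP values were 6.07, 4.21 and 8.34 CPM against 10.6, 9.72 and 9.52 CPM (log2 fold change 0.68, SE 0.21, adjusted p = 0.0119), so that every library of differentiation medium lay above every one of proliferation medium in both treatments. With EtOH the Ddb2 call was lost without replicate 1 (adjusted p = 0.0727) or 3 (0.0921) of proliferation medium or replicate 1 of differentiation medium (0.221). Xpa measured 17.7, 17.3 and 15.4 CPM against 14 and 12 CPM with EtOH and fell (log2 fold change -0.37, SE 0.12, adjusted p = 0.0141), a call lost without EtOH replicate 2 of differentiation medium (0.164). On the TPM scale the Xpa groups overlapped, at 28.3 to 33.8 against 29.5 to 32.9 TPM with EtOH. The lesion sensor Xpc fell by 0.34 with EtOH, where it lost its call without EtOH replicate 3 of proliferation medium (0.0508) or EtOH replicate 2 of differentiation medium (0.130), and by 0.72 on the log2 scale with 4HBP. The endonuclease subunit Ercc1 had values of -0.20, which did not pass, and -0.39, which did, and the helicase Ercc2 (-0.05 and 0.05) passed in neither treatment.

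Of the genes for strand-break repair, Xrcc1 measured 41.7, 41.9 and 40.8 CPM in proliferation medium and 22.7 and 23.6 CPM in differentiation medium with EtOH (log2 fold change -0.84, SE 0.09, adjusted p = 2.70e-06). Its enzyme partner Parp1 measured 167, 151 and 168 CPM against 155 and 168 CPM with EtOH, values that overlapped (log2 fold change -0.01, SE 0.10, adjusted p = 0.962). On the TPM scale Parp1 was higher in differentiation medium with EtOH, at 77.6 to 80.7 against 53.5 to 60.6 TPM, which was not tested. With 4HBP it measured 155, 161 and 122 CPM against 171, 172 and 175 CPM and passed as higher (log2 fold change 0.24, SE 0.09, adjusted p = 0.0295). Without 4HBP replicate 3 of proliferation medium, its lowest library, the log2 fold change was 0.12 with an adjusted p of 0.0867, and leaving out any library of 4HBP in differentiation medium also ended the call (0.0573 to 0.0721).

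Genes of dividing cells moved in the same direction across the media. All 14 genes of a list for cycling cells, which holds the replicative helicase subunits and mitotic regulators, fell in differentiation medium in both treatments (median log2 fold changes -2.70 and -1.99), and their summed level was 1214 to 1380 CPM with EtOH in proliferation medium and 213 to 253 CPM with EtOH in differentiation medium. All 6 listed genes of E2F transcription factors (E2f1, E2f2, E2f3, E2f4, E2f7 and E2f8), which regulate S-phase genes, fell as well (median -2.09 and -1.15). The part of these shifts in the repair gene decrease was not tested. Of the lineage markers with EtOH, 7 oligodendrocyte lineage genes summed to 3363 to 3999 CPM in proliferation and 7530 to 7858 CPM in differentiation medium (4 rose). The sums of 5 astrocyte markers overlapped, at 4144 to 5001 and 3942 to 4237 CPM (3 rose and 2 fell), and those of 7 neuron markers were 965 to 1061 and 911 to 944 CPM (4 rose and 1 fell).

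Because many members fell together, their promoters were searched for 3 motifs of cell-cycle and general promoters on both strands. RefSeq (GRCm38.p6) gave a window from 250 bases before to 50 bases after the start for 38 of the 47 members. The E2F letters TTTCCCGC, TTTGGCGC, TTTCGCGC or TTTGCCGC stood in 8 of these 38 promoters (21.1%), against 2.32% of 27025 promoters of all genes. The shorter core TTCCCGC, which is contained in TTTCCCGC and was added after the promoters had been seen, stood in 14 of 38 (36.8%) against 4.66%. CCAAT boxes stood in 24 of 38 (63.2%) against 37.9%, and the cell-cycle homology element, TTTGAA or TTCGAA, in 2 of 38 (5.26%) against 19.4%. Of the 27 promoters whose genes fell with EtOH, 12 held the E2F core and 20 a CCAAT box, while of the other 11 promoters 2 held the core and 4 a CCAAT box. These matches are letters in a window and show no binding. The 4 promoters of the genes that fell most among those with a sequence are shown with that of Xrcc4, the member with the highest value among them. They are written 5′ to 3′ in the direction of transcription, with the E2F core and CCAAT (or their reverse complements GCGGGAA and ATTGG) in capitals, and lie at chr9:36726609-36726908 (Chek1, minus strand), chr11:86201144-86201443 (Brip1, minus), chr7:79392088-79392387 (Fanci, plus), chr6:126939538-126939837 (Rad51ap1, minus) and chr13:90089559-90089858 (Xrcc4, minus).
Chek1: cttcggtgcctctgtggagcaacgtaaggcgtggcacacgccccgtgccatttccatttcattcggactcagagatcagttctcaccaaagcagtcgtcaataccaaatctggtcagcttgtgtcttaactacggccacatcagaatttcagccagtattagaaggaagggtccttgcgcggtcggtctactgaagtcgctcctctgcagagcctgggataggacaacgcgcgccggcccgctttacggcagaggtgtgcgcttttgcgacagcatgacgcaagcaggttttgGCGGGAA
Brip1: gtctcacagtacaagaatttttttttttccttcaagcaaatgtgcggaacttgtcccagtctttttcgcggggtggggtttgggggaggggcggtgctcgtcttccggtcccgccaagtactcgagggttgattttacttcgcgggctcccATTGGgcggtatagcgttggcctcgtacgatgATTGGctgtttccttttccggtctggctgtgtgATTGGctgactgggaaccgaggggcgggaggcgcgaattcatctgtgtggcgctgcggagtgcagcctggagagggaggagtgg
Fanci: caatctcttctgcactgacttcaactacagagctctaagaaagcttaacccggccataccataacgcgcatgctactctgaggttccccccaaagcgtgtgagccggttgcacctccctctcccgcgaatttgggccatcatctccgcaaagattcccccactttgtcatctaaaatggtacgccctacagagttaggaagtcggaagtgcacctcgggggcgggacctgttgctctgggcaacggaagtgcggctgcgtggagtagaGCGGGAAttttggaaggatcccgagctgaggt
Rad51ap1: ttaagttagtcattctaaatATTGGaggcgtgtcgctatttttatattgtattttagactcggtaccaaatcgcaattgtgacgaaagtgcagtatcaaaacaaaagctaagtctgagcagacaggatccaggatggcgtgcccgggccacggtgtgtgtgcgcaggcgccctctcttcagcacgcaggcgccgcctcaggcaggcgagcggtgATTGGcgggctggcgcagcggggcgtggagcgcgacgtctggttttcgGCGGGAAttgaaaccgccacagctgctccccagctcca
Xrcc4: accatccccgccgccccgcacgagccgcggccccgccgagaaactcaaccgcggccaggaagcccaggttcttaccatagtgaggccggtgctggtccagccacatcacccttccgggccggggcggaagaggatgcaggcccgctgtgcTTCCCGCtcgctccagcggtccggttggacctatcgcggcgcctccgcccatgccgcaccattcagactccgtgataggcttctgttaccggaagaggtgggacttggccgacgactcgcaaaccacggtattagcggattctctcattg
Chek1, Fanci and Rad51ap1 each held an E2F core downstream of the annotated start, at 43, 18 and 12 bases from it. In Xrcc4 the core lay 100 bases upstream. Positions in the other members with a core are not given here, and a link between position and the decrease was not tested. Brip1 held 3 CCAAT boxes and no E2F core.

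In proliferation medium, 4HBP lowered 2 repair genes, Brca1 and Fanci, at an adjusted p under 0.05, and raised none. These 2 are 4.26% of the 47 members, beside 3.69% of the 14449 tested genes that fell and 7.43% that changed in either direction, so the share called was close to that of all genes. Without that threshold, 19 of the 47 members had an unadjusted p under 0.05, beside 3621 of the 14449 tested genes. The median log2 fold change was -0.16, against 0.00 over all genes. In 17 members (36.2%) all 4HBP libraries lay below all EtOH libraries, which held for 15.1% of tested genes, and in 9 members (19.1%) they lay above, against 16.2%.

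Brca1 (chr11:101488764-101551955, minus strand), which directs broken ends to homologous recombination, measured 30.1, 28.4 and 35.3 CPM with EtOH and 20.8, 20.8 and 12 CPM with 4HBP. No 4HBP library reached an EtOH library, and replicate 3 was the lowest. The decrease was 1.75-fold (log2 fold change -0.81, SE 0.19, adjusted p = 0.0387). It had an adjusted p of 0.0129 and a log2 fold change of -0.58 without 4HBP replicate 3, but the adjusted p was 0.0674 without 4HBP replicate 2, and 0.119, 0.111 and 0.0988 without EtOH replicates 1, 2 and 3.

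Fanci (chr7:79391929-79450264, plus strand) measured 13.9, 15.6 and 16.1 CPM with EtOH and 9.60, 11.8 and 7.26 CPM with 4HBP. The groups did not overlap, and the decrease was 1.59-fold (log2 fold change -0.67, SE 0.17, adjusted p = 0.0486). Its call held without 4HBP replicate 3 (adjusted p = 0.0476) or 2 and was lost without 4HBP replicate 1 (0.101) or EtOH replicates 1, 2 or 3 (0.120, 0.166 and 0.108). Its exons overlap those of Polg on the opposite strand by 921 bases. Polg, which had 9.34 times its counts, had a log2 fold change of -0.05 with 4HBP (adjusted p = 0.760).

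The next smallest p-values belonged to other Fanconi genes. Fancg, a core subunit, measured 11.8, 10.5 and 8.82 CPM with EtOH and 6.32, 6.62 and 7.82 CPM with 4HBP. Here replicate 3 was the highest of the 4HBP libraries, and the log2 fold change of -0.58 (SE 0.15) had an adjusted p of 0.0515. Fancd2, the partner of Fanci, measured 15, 20.5 and 16.5 CPM with EtOH and 11.8, 12.6 and 8.05 CPM with 4HBP (log2 fold change -0.68, SE 0.18, adjusted p = 0.0566). Both pairs of groups were apart without passing the test. With EtOH in differentiation medium Fancd2 measured 3.00 and 2.92 CPM and Fanci 2.86 and 2.88 CPM, so the 4HBP values in proliferation medium stayed above them, as the plot of single libraries shows.

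**Figure D2:**
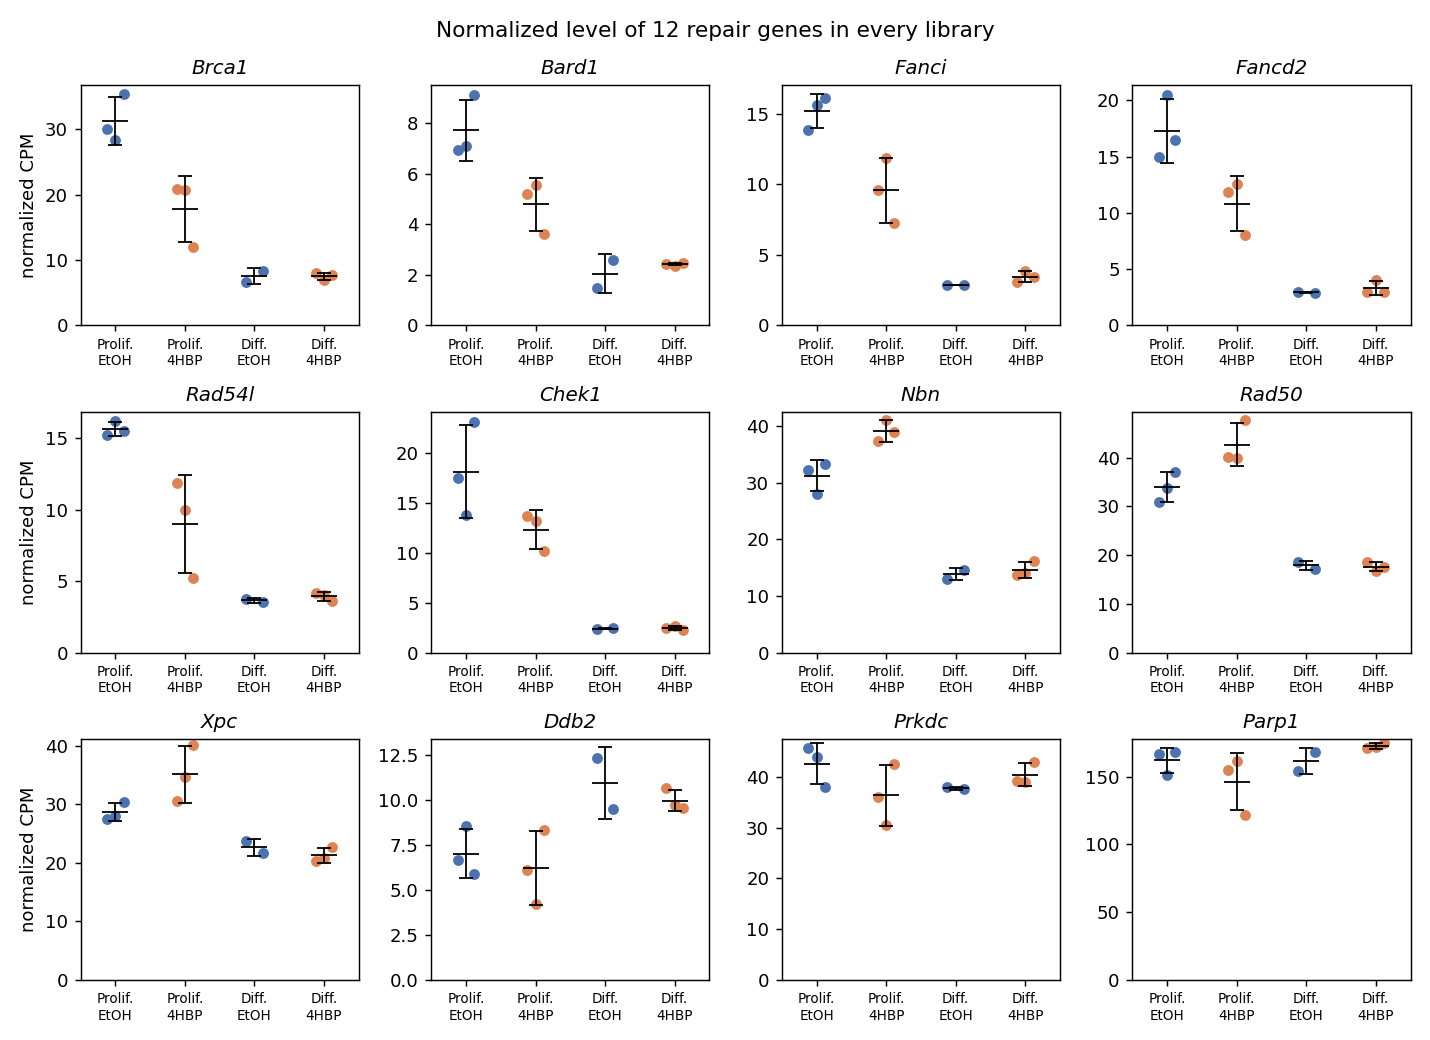
Normalized CPM of 12 repair genes in every library, by medium and treatment (EtOH blue, 4HBP orange); horizontal marks are means, bars are SDs and each y axis starts at 0. Brca1 and Fanci lie lower with 4HBP than with EtOH in proliferation medium, whereas in differentiation medium the treatments lie close together.

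By pathway, the log2 fold change was below 0 in 11 of 13 genes of homologous recombination (median -0.31), 9 of 11 of the Fanconi group (median -0.58), 3 of 4 of mismatch repair (-0.11), 3 of 5 of excision repair (-0.08), both genes of strand-break repair (-0.09), 1 of 7 sensors and kinases (0.03) and 1 of 5 of end joining (0.17), beside 49.8% of all tested genes. The pathways were not tested against each other. In homologous recombination and the Fanconi group Rad54l (-0.80, adjusted p = 0.0805), Bard1 (-0.69, 0.0671), Rad51ap1 (-0.67, 0.104), Fanca (-0.66, 0.140), Brip1 (-0.65, 0.171) and Fancb (-0.60, 0.120) had sizes like those of Brca1 and Fanci but did not pass the test. Chek1 (-0.56, 0.114) and Exo1 (-0.56, 0.252) were similar in the other groups. Rad54l shares 1184 exonic bases with Lrrc41 on the opposite strand, which had 6.77 times its counts and a log2 fold change of 0.40 (adjusted p = 0.0218). In the sensor complex Rad50 was at 0.33 (adjusted p = 0.0860), Nbn at 0.33 (0.0587) and Mre11a at 0.01 (0.970), and none of the 3 passed the test. The Nbn libraries were 32.3, 28.1 and 33.4 CPM with EtOH and 37.3, 41.1 and 39.1 CPM with 4HBP and did not overlap.

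**Figure D3:**
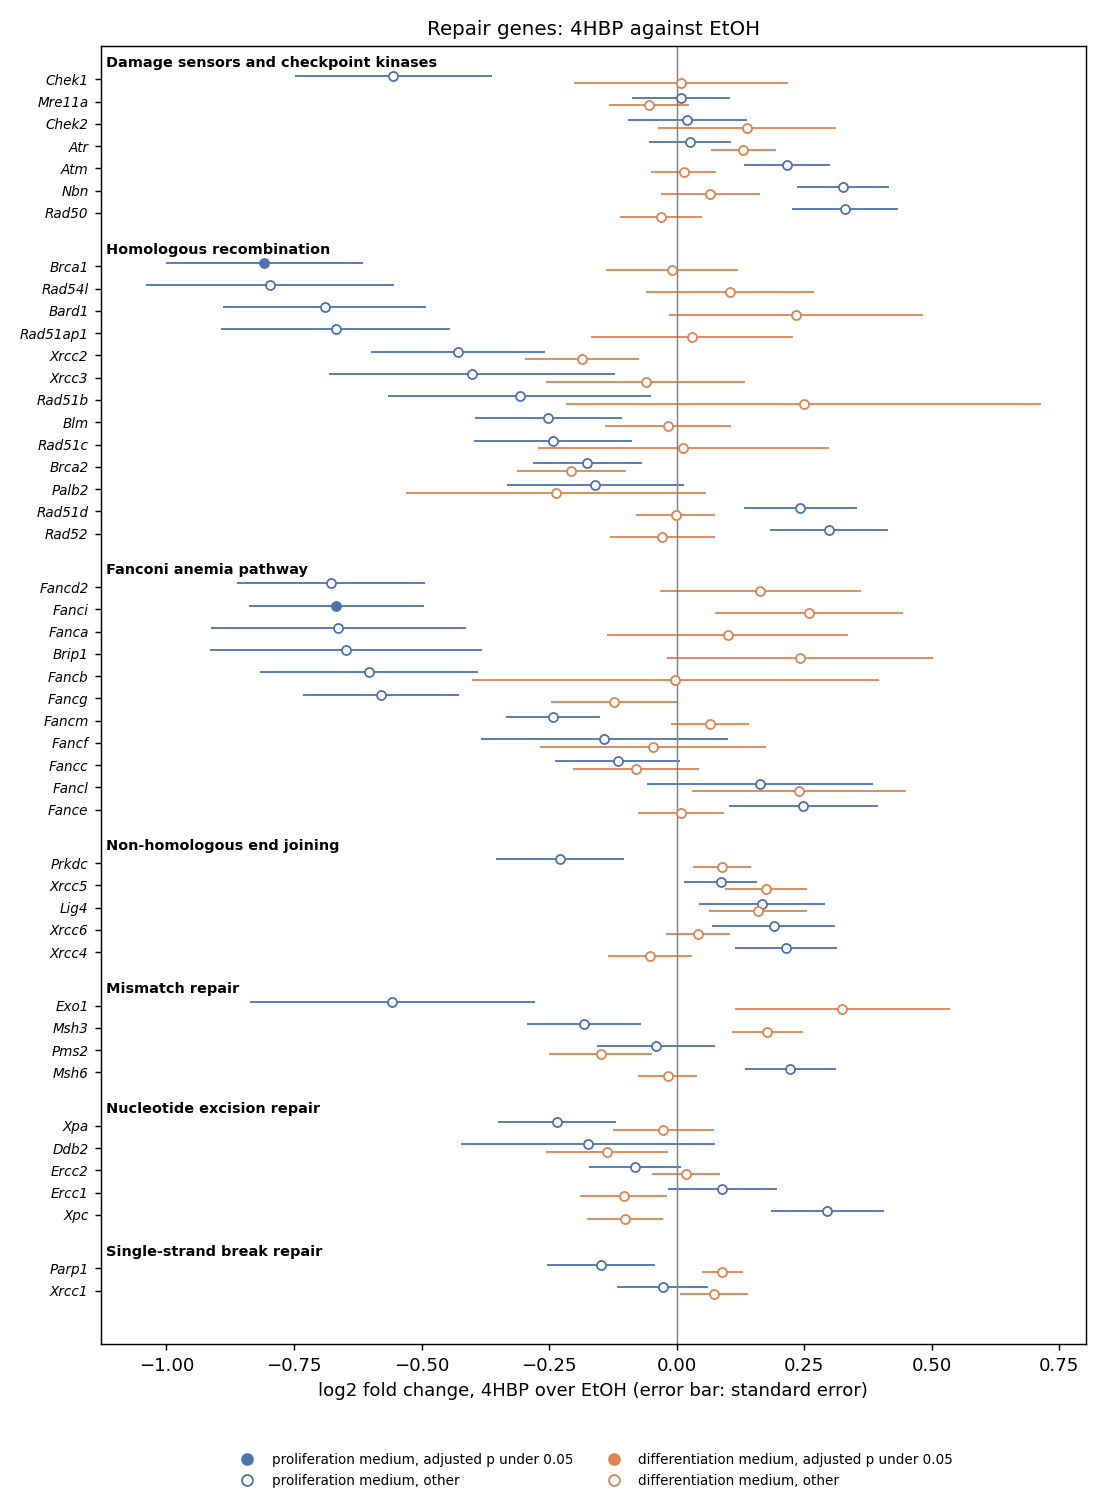
Log2 fold changes of 47 repair genes with 4HBP over EtOH in proliferation medium (blue) and in differentiation medium (orange), grouped by pathway; the x axis is the log2 fold change, bars are standard errors and filled points have an adjusted p under 0.05. The only 2 filled points are Brca1 (-0.81) and Fanci (-0.67) in proliferation medium.

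Replicate 3 of 4HBP had the lowest value of its group in 13 of the 17 members whose groups were apart and lower. Without it, 4 of the 47 members fell (Brca1, Rad54l, Fancg and Fanci), beside 4.87% of all tested genes, and 20 (42.6%) were apart and lower, beside 21.7% of all tested genes. Expression of dividing cells was lower in the same library: the 14 genes of cycling cells summed to 1214 to 1380 CPM with EtOH and to 1022, 1165 and 629 CPM in 4HBP replicates 1, 2 and 3, with 0 of 14 passing the edgeR test, 7 with an unadjusted p under 0.05 and all 14 values below 0 (median log2 fold change -0.46). Of the 6 listed E2F factors 1 fell (E2f8, -0.81, adjusted p = 0.0297). Markers of astrocytes were lower as well. Of 5 astrocyte markers 3 fell (Gfap, Aqp4 and Gja1) and all 5 were apart and lower (median -0.66), with sums of 4144 to 5001 CPM with EtOH and 2777 to 3197 CPM with 4HBP, the highest of these in replicate 3. Of 7 oligodendrocyte lineage genes 0 passed the edgeR test, with 2 at an unadjusted p under 0.05, and their sums were 3363 to 3999 CPM with EtOH and 3549, 3240 and 2124 CPM in 4HBP replicates 1, 2 and 3. The part of these levels in the decrease of repair genes was not tested. The choice of test also mattered. DESeq2 called 8 members (7 lower, and Nbn higher) and a fit of all 11 libraries 11 members (9 lower, with Rad50 and Nbn higher), while limma on log2(CPM + 1) called 0 at an adjusted p under 0.05 and 6 at the thresholds of the study's methods (a fold limit of 0.58 on the log2 scale in either direction, with p unadjusted). The count of all genes called also rose in DESeq2 and in the fit of all 11 libraries. It fell in limma at both thresholds, as the last section lists.

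Among the members, Xpc and the human counterpart of Ddb2 are known targets of the transcription factor p53. Whether mouse Ddb2 answers to p53 in these cells was not tested. In proliferation medium, 9 of 11 p53 target genes that are not members rose with 4HBP (median log2 fold change 0.58), beside 541 of the 14449 tested genes. Their sum went from 1105 to 1261 CPM with EtOH to 1691 to 2326 CPM with 4HBP. Whether this rise came through p53 was not tested. Ddb2 was not called, at -0.17 (SE 0.25, adjusted p = 0.723), with 4HBP values below and among the EtOH values. Xpc measured 27.4, 28.1 and 30.3 CPM with EtOH and 30.5, 34.7 and 40.1 CPM with 4HBP, which did not overlap but did not pass (log2 fold change 0.30, SE 0.11, adjusted p = 0.138). The exons of Ddb2 share 652 bases with those of Acp2 on the opposite strand, which had 10.7 times its counts.

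**Figure D4:**
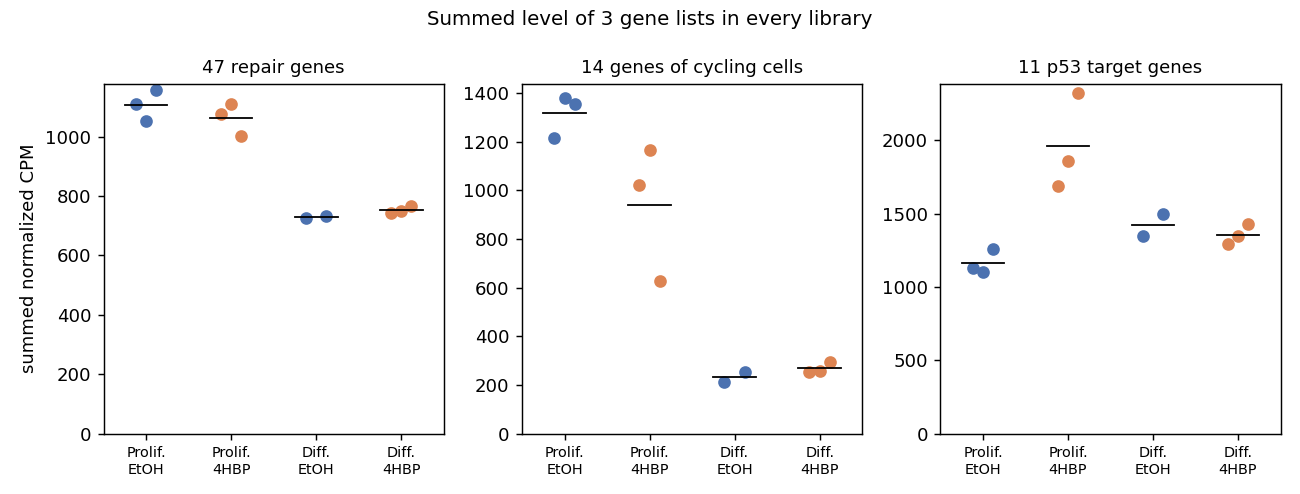
Summed normalized CPM of the 47 repair genes, of 14 genes of cycling cells and of 11 p53 target genes in every library (EtOH blue, 4HBP orange, lines are means; each y axis starts at 0). In proliferation medium the 4HBP libraries lie below the EtOH libraries for cycling cells and above them for p53 targets, and the sums of repair genes overlap.

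In differentiation medium, 4HBP changed 0 of the 47 members in the edgeR test, beside 2.55% of the 15484 tested genes. DESeq2 and limma also called 0 members, and 3 (Xrcc5, Msh3 and Parp1) had an unadjusted p under 0.05 in edgeR, as did 2460 of the 15484 tested genes. The median log2 fold change was 0.01 and the values ran from -0.24 for Palb2 to 0.33 for Exo1. In 9 members (19.1%) all 4HBP libraries lay above the EtOH libraries and in 3 (6.38%) below, beside 17.4% and 15.5% of tested genes. Brca1 measured 6.70 and 8.38 CPM with EtOH and 7.97, 6.97 and 7.68 CPM with 4HBP, which overlap (log2 fold change -0.01, SE 0.13, adjusted p = 0.981). Fanci measured 2.86 and 2.88 CPM with EtOH and 3.09, 3.85 and 3.41 CPM with 4HBP (log2 fold change 0.26, SE 0.18, adjusted p = 0.535).

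The difference between the 4HBP effects in the 2 media was tested as an interaction over all 11 libraries. It called 0 of 47 members in edgeR, beside 4.49% of 15920 genes, and 12 members had an unadjusted p under 0.05, as did 3165 of the 15920 genes. Fanci came nearest, with a difference of -0.93 on the log2 scale (SE 0.26, adjusted p = 0.0668), which means a lower value of the 4HBP effect in proliferation medium. Bard1 (-0.93), Rad54l (-0.91), Fancd2 (-0.85) and Brca1 (-0.81) had differences of like size, with adjusted p-values of 0.145, 0.168, 0.134 and 0.131. DESeq2 called 1 member, Fanci. Without 4HBP replicate 1, 2 or 3 of proliferation medium in turn, edgeR also called 1 member each time. It was Fanci in 2 of these fits and Xpc, in the opposite direction, in 1. Without a filter on low counts more members passed, Brca1 and Fanci among them. In the main test, the decrease of Brca1 and Fanci in proliferation medium was therefore not shown to differ from the values in differentiation medium.

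The other genes of the same pathways were described from a list of 88 that hold no member. With 4HBP in proliferation medium 3 of them rose and 1 fell, with a median log2 fold change of -0.07. The share called was 4.55%, below the 7.43% of all tested genes. Those that rose were Rad9a, a subunit of the checkpoint clamp (0.52, adjusted p = 0.0318), the excision nuclease Ercc5 (0.38, 0.0422) and the abasic site endonuclease Apex1 (0.36, 0.0345), and the glycosylase Neil3 fell (-0.75, 0.0270). In differentiation medium 0 passed in edgeR, beside 2.55% of the 15484 tested genes. An unadjusted p under 0.05 was found for 8 of the 88 and for 2460 of all tested genes. Between media, 53 of 88 (60.2%) fell and 7 rose in each treatment, with medians of -0.60 with EtOH and -0.52 with 4HBP. Of all tested genes 30.6% fell and 30.8% rose with EtOH, and 33.8% fell and 33.3% rose with 4HBP. The lowest were Clspn, an adaptor for Chek1 activation (-3.03), Neil3 (-3.00) and the fork protection factor Timeless (-2.75) with EtOH, and of those that rose the highest were the polymerase Polm (0.48), the nuclease Fan1 (0.36) and the mismatch factor Mlh3 (0.32). The glycosylase Mpg had the highest value with EtOH, 0.63, but did not pass (adjusted p = 0.0924), nor did it with 4HBP (0.48, 0.130). With 4HBP the lowest were again Timeless (-2.22), Neil3 (-2.11) and Clspn (-2.11), and of those that rose the highest were the single-strand binding subunit Rpa1 (0.58), Fan1 (0.55) and the end joining factor Paxx (0.47). The interaction called 1 of the 88, the clamp loader subunit Rfc4 (-0.91, adjusted p = 0.0388), beside 4.49% of all tested genes.

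The mean transcript length that the quantification assigned to a gene differed between media without overlap in 5 of the 47 members (10.6%), beside 16.1% of 15920 genes. Brca2 had lengths of 4223 to 6020 bases over the 6 proliferation libraries and 2281 to 3284 bases over the 5 differentiation libraries. Rad51ap1 was longer in differentiation medium (1040 to 1460 against 806 to 987 bases), as was Msh3 (2821 to 3023 against 2490 to 2701 bases), and Xrcc4 and Ddb2 were shorter. For these genes a ratio of TPM and a ratio of CPM between media are not the same quantity, and the fold changes above are of counts. Counts that were not whole, which RSEM gives where reads also match another gene, stood in 10 libraries for Brca2 and in 9 each for Brip1, Pms2 and Msh3, so that part of their reads was divided by estimate. Pms2 also shares 394 exonic bases with Gm42421 and 85 with Rsph10b on its own strand.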

How the data were processed

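Hippocampus-derived NSCs of the mouse were sequenced by the authors as stranded poly(A) libraries with paired ends. Per the study's methods and the submitters' processing notes, reads were checked with FastQC (0.11.5), trimmed with cutadapt and quantified with RSEM (1.3.0) and Bowtie2 (2.2.9) against mm10/GRCm38 with GENCODE annotation; the strand setting of counting is not given in the sources used here. The authors deposited a table per sample with expected counts, which need not be whole (18.6% of values were not), TPM and mean transcript length. Gene symbols came from GENCODE annotation of the same build (99.7% of gene IDs matched). Expected counts were rounded, filtered with filterByExpr, scaled with TMM and tested with edgeR (4.0.16) quasi-likelihood F-tests, Benjamini-Hochberg adjusted over all tested genes at 0.05. 4HBP was compared with EtOH within each medium (6 and 5 libraries); the media comparisons and the interaction used 4 group means over 11 libraries. Printed CPM use TMM factors over 11 libraries. Fold changes within a medium come from that medium's fit. DESeq2 (1.42.0), limma (3.58.1) and other normalizations, filters and library sets were alternatives. The test was checked on simulated counts. All members are named; values per library are given for the 4 members with the smallest p with 4HBP in proliferation medium and for the extremes of each pathway between media with EtOH, and, chosen after the values were seen, for Nbn and Xpc. Mpg and the astrocyte markers named were likewise chosen after their values were seen. Members and gene lists were chosen with earlier results of these data known. In 13 members at least 1 library had a count that was not whole. FPKM values and effective lengths were not used.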

Additional observations from a re-analysis of the deposited data

How the results depend on the processing

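The count of members called with 4HBP in proliferation medium depended most on the processing. It was 2, and stayed 2 with DESeq2 size factors, library totals alone, limma voom or an added limit of 0.58 on the absolute log2 fold change. It was 8 without a filter on low counts, 8 in DESeq2, 11 in a fit of all 11 libraries, 6 with limma at the study's thresholds and 0 with limma at an adjusted p under 0.05; without 1 library it ran from 0 to 4, with 0 when EtOH replicate 1 or 2 was left out, 1 without 4HBP replicate 2 or EtOH replicate 3 and 4 without 4HBP replicate 3. Of these settings, several moved the count of all genes called from 1074 to 1633 in DESeq2, 2668 with all 11 libraries, 18 with limma, 506 with the limit on fold change, 651 at the study's thresholds and between 107 and 1429 without 1 library. For the fit without a filter this count is not given here, so its 8 members cannot be set beside a share of all genes. Same-numbered libraries did not deviate together (correlations -0.127 to 0.0831). With so few libraries per group, this cannot settle whether the replicate numbers pair the samples. A replicate block gave 0 members and 534 genes in proliferation medium, 0 members and 745 genes against 395 in differentiation medium, 33 and 34 members between media with EtOH and with 4HBP, and 0 members for the interaction. In differentiation medium the count of members was 0 in every setting, while all genes called went from 395 to 275 in DESeq2, 777 without a filter, 59 with the limit on fold change, 66 at the study's thresholds, 0 with limma or all 11 libraries and 77 to 288 without 1 library. For the interaction, 6 members passed without a filter and 1 in DESeq2, and 0 to 1 without 1 library; all genes called went from 715 to 1615 without a filter, 1086 in DESeq2, 264 with limma, 464 with the limit on fold change and 124 to 1100 without 1 library. Between media the counts ran from 26 to 35 with EtOH and from 28 to 34 with 4HBP, and the limit on fold change took all genes called from 9771 to 5965 and from 10692 to 6651. Values near 0 changed sign: Fancf with EtOH was -0.012 without a filter, -0.0061 with a replicate block and -0.0437 to 0.0842 without 1 library, and with 4HBP -0.0433 to 0.283 without 1 library; Parp1 with EtOH was 0.0808 with library totals or limma, 0.0019 with only the 2 groups compared and -0.0596 to 0.0575 without 1 library. Chosen after seeing the data were 2 alternatives: the shorter E2F core, with which 14 promoters held a motif against 8, and the count of members apart and lower without 4HBP replicate 3, 20 against 17. The causes were not tested.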
